A study of Mus musculus with 24 samples.

Results

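Stearoyl-CoA desaturases, fatty acid desaturases and fatty acid elongases were followed through adipocyte differentiation of 3T3-L1 cells, with and without ML-792. The genes were Scd1, Scd2, Fads1, Fads2, Fads3, Elovl1, Elovl5 and Elovl6, which are 8 of the 26995 gene symbols in the count tables. They were picked by symbol. Where a symbol had several 3′UTR entries, the one best covered by total reads on average across the 24 libraries stands for the gene.

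3T3-L1 is 1 mouse embryonic fibroblast line that turns into adipocytes when given dexamethasone, 3-isobutyl-1-methylxanthine and insulin, with insulin alone from day 3. Cells received DMSO or 0.5 μM ML-792, an inhibitor of the SUMO activating enzyme, and were harvested at days −2, 1, 3 and 7 relative to induction, with 3 biological replicates (A, B and C) in each of the 8 conditions. New RNA was labelled with 100 μM 4-thiouridine for 45 min, and every library gave a total read count (QuantSeq) and a count of labelled reads with at least 1 T to C conversion (SLAMseq). ML-792 was compared with DMSO at each day, and days 1, 3 and 7 were compared with day −2, so these 3 comparisons share the day −2 libraries. Serum changed from calf to fetal bovine at induction, so serum changes along with day in these 3 comparisons. The paper's methods text does not say when ML-792 was first given to these cultures. In its viability assay ML-792 was given from day −2.

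Saturated fatty acids made by the cell or taken from serum are lengthened and desaturated at the endoplasmic reticulum before they enter triglycerides and membranes. Elongases start each round of chain lengthening by condensing an acyl-CoA with malonyl-CoA, and desaturases place double bonds with electrons delivered by cytochrome b5. In adipocytes the stearoyl-CoA desaturases are known as part of the lipogenic program that fills the lipid droplet, and SREBP and LXR factors are known to regulate several of the genes.

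Depth ran from 13554718 to 27013352 total reads per library, and the labelled reads numbered 115709 to 820046. Counts are given as normalized counts, that is, scaled to the mean effective library of 18300638 total reads, for labelled reads too. In every condition the B library stood farther from A and C (chi-square of 32.3 to 76.4 per entry) than A and C stood from each other (8.73 to 26.8). The cells matched their label by markers. All 8 adipocyte markers were called higher at day 7 than at day −2 in DMSO, with a summed level of 21939 to 23421 at day −2 and 640125 to 727991 at day 7. Of 8 pre-adipocyte or fibroblast markers 7 were called lower. Of all genes tested, 18.9% were higher and 19.4% lower in this comparison. Macrophage markers summed to at most 145.8 normalized counts in any library with Ptprc listed at 0, endothelial markers to at most 20.5 and muscle markers to at most 179.1. In these bulk samples fewer cells of a type and less RNA per cell cannot be told apart.

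The desaturases and elongases did not move as 1 block during differentiation in DMSO. Both stearoyl-CoA desaturases climbed to their highest levels at day 7, the 3 Fads genes dipped at days 1 and 3 and came back at day 7, Elovl6 fell and stayed low, and Elovl1 peaked at day 3. By edgeR's quasi-likelihood test at an adjusted p under 0.01, 1 gene was higher and 4 were lower at day 1 than at day −2, against 16.8% of all 13331 genes tested. At day 3 these numbers were 3 higher and 4 lower (36% of all genes), and at day 7 they were 2 higher and 1 lower (38.3% of all genes). From day 3 to day 7, 6 rose and 1 fell, where 10.9% of all genes were called. Without replicate A 1 gene was called at day 1 and 3 from day 3 to day 7, and without C these numbers were 3 and 4. Leaving out A leaves B and C, the pair farthest apart at every day in DMSO, and the part of this distance in the lost calls was not tested. The day 1 changes that lost their call without A kept their direction, in libraries that the main fit also used. Their log2 values were 1.21 for Scd1, −2.0 for Elovl6, −0.93 for Fads3 and −1.59 for Fads2. Without B, 5 genes were called at day 7 in place of 3. Within the ML-792 arm 2 genes were higher and 4 lower than at day −2 at day 1 (24.8% of all genes called), 2 higher and 4 lower at day 3 (41.4%) and 2 higher and 1 lower at day 7 (40.9%). Of the 6 at day 1, 3 were called without replicate A. The plot of total counts by day shows the 8 courses.

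**Figure D1:**
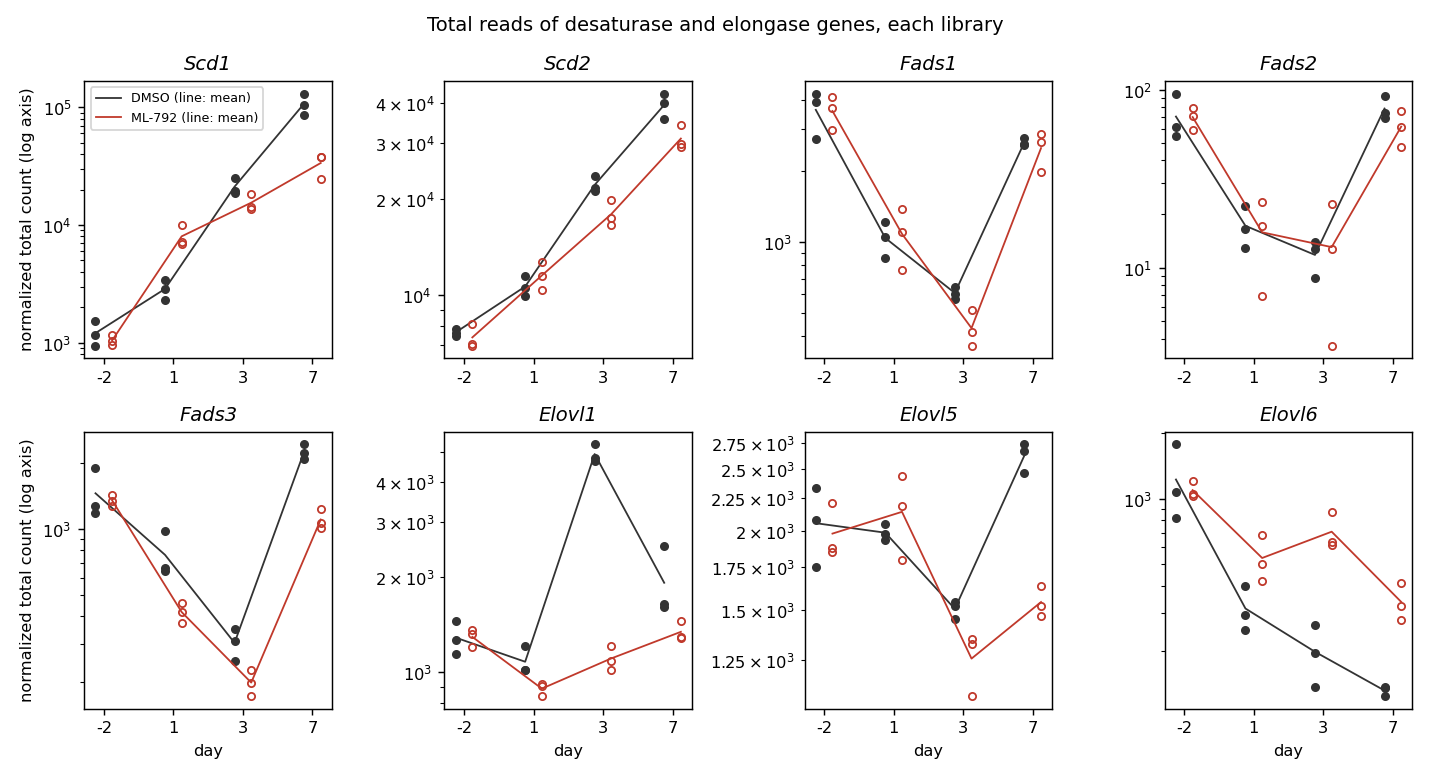
Normalized total counts (log axis) of the 8 genes in every library at days −2, 1, 3 and 7. Filled points are DMSO libraries, open points ML-792 libraries and lines join the means of 3 libraries; Scd1 spans 945 to 130752 normalized counts and the ML-792 libraries of Scd1 lie above DMSO at day 1 and below it at day 7.

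Scd1 places the first double bond in stearoyl- and palmitoyl-CoA and so makes oleate and palmitoleate. In DMSO its normalized total counts in replicates A, B and C were 1154, 1517 and 945 at day −2 and 2879, 3420 and 2291 at day 1. They were 19592, 25227 and 18630 at day 3 and 105474, 130752 and 85982 at day 7. No library of a later day overlapped one of an earlier day. The rise was 2.38-fold at day 1 (log2 1.25, SE 0.23, adjusted p = 0.0009), 17.6-fold at day 3 (log2 4.13) and 89.1-fold at day 7 (log2 6.48, SE 0.28, adjusted p = 1.5e-10). The day 1 call was lost without replicate A (adjusted p = 0.062) or C (0.012), while those of days 3 and 7 held without any 1 replicate.

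Under ML-792 the course of Scd1 was flatter, with more RNA early and less late. Its normalized total counts were 1037, 1152 and 948 at day −2 and 7221, 9930 and 6893 at day 1. They were 14274, 18454 and 13705 at day 3 and 38187, 38123 and 24643 at day 7. The day 1 libraries all lay above those of DMSO, and the day 3 and day 7 libraries all lay below them. ML-792 cells held 2.80-fold more Scd1 RNA at day 1 (log2 1.48, SE 0.22, adjusted p = 0.0001) and 3.19-fold less at day 7 (log2 −1.67, SE 0.22, adjusted p = 1.9e-05). The day 3 difference of −0.45 on the log2 scale did not pass (adjusted p = 0.25), and at day −2 the groups overlapped (log2 −0.21). The effect of ML-792 on Scd1 differed between days (interaction, adjusted p = 3.8e-06), by 1.69 log2 units between days 1 and −2 (adjusted p = 0.0035, 2.36% of all genes called for this term) and by −1.47 between days 7 and −2 (adjusted p = 0.0092, 4.04% of all genes). Without replicate A these 2 single-day terms no longer passed (adjusted p = 0.36 and 0.34), nor did the day 7 term without C (0.14), while the joint interaction test held. From lowest to highest mean, Scd1 ran over day −2 in ML-792, day −2 in DMSO, day 1 in DMSO, day 1 in ML-792, day 3 in ML-792, day 3 in DMSO, day 7 in ML-792 and day 7 in DMSO. Neighbours overlapped at day −2 and between day 3 in DMSO and day 7 in ML-792, and all others were separate.

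Scd2 is the second stearoyl-CoA desaturase of most mouse tissues and the one known for its expression in pre-adipocytes. In DMSO its normalized total counts were 7856, 7464 and 7639 at day −2 and 10542, 11468 and 9941 at day 1. They were 21650, 21154 and 23644 at day 3 and 42742, 35503 and 39971 at day 7. Replicates were close, with a median coefficient of variation of 8.93% over the 8 conditions against 20.3% for Scd1. The increase over day −2 was 2.89-fold at day 3 (log2 1.53, SE 0.15, adjusted p = 9.8e-07) and 5.15-fold at day 7 (log2 2.36, SE 0.16, adjusted p = 9.4e-09), while the day 1 difference of 0.48 had an adjusted p of 0.032.

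Scd2 was not called with ML-792 at any day in the main fit, which had no term for the replicate letter. With that term (the replicate block) it was called at days 3 and 7, as given in the part on processing. With ML-792 the normalized total counts of Scd2 were 16535, 17465 and 19864 at day 3 and 34108, 29657 and 29007 at day 7, each below every DMSO library of that day. The log2 differences were −0.30 (SE 0.13, adjusted p = 0.19) at day 3 and −0.35 (SE 0.13, adjusted p = 0.13) at day 7, and neither passed at an adjusted p under 0.1. At day 1 the ML-792 libraries (11459, 10400 and 12741) overlapped those of DMSO. The interaction of day and treatment was not called for Scd2 (adjusted p = 0.34). Whether the ML-792 effects on Scd1 and Scd2 differ from each other was not tested. Scd1, Scd2, Scd3 and Scd4 are close paralogs. The authors ran SlamDunk with its default settings, and what these did to reads shared between the paralogs was not tested.

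Fads1 and Fads2 carry out the front-end desaturations that turn linoleic and α-linolenic acid into arachidonic and eicosapentaenoic acid, and Fads3, their neighbour on chromosome 19, is known to act on sphingoid bases. All 3 shared a dip in the first days after induction. Fads1 normalized total counts in DMSO were 3910, 2723 and 4247 at day −2 and 1046, 857 and 1213 at day 1. They were 646, 575 and 603 at day 3 and 2599, 2572 and 2755 at day 7. Fads1 thus fell 3.49-fold by day 1 (log2 −1.80, SE 0.19, adjusted p = 6.1e-06) and 5.97-fold by day 3 (log2 −2.58, SE 0.20, adjusted p = 5.2e-08). It regained 4.35-fold between days 3 and 7 (adjusted p = 2.7e-06), to a level that overlapped day −2 (log2 −0.46, adjusted p = 0.057).

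The Fads2 entry is short and thinly covered. It spans 99 bases at chr19:10064164-10064262 (GRCm38, minus strand) and ends 1399 bases before the 3′ end of the annotated transcript, whereas the entries of the other 7 genes reach that end. It held 3 to 116 total reads per library, so its counts have a wide error. In DMSO the normalized total counts of Fads2 were 94.9, 61.7 and 55.1 at day −2 and 12.9, 16.4 and 22.3 at day 1. They were 8.75, 12.8 and 13.9 at day 3 and 68.8, 91.8 and 74.2 at day 7. These values put Fads2 4.11-fold lower at day 1 (log2 −2.03, SE 0.37, adjusted p = 0.00092) and 5.98-fold lower at day 3 (log2 −2.57, SE 0.39, adjusted p = 7.4e-05) than at day −2. Both calls were lost without replicate A (adjusted p = 0.086 and 0.013). Between days 3 and 7 Fads2 rose 6.64-fold (adjusted p = 0.00021, or 0.018 without replicate A), and at day 7 it overlapped day −2 (log2 0.15).

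Fads3 dipped deepest at day 3 and then overshot. Its normalized total counts in DMSO were 1278, 1902 and 1186 at day −2 and 667, 978 and 643 at day 1. They were 310, 349 and 250 at day 3 and 2086, 2434 and 2222 at day 7. The day 3 level was 4.81-fold below day −2 (log2 −2.26, SE 0.23, adjusted p = 1e-06), and the climb from day 3 to day 7 was 7.42-fold (adjusted p = 9.8e-07). The day 1 decrease of 0.93 log2 units (adjusted p = 0.0057) was lost without replicate A (0.11) or C (0.045). All day 7 libraries lay above all day −2 libraries, but the log2 difference of 0.63 did not pass (adjusted p = 0.028).

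Under ML-792 the 3 Fads genes parted. Fads1 was 1102, 764 and 1380 at day 1, 364, 415 and 515 at day 3, and 2853, 1981 and 2656 at day 7 in normalized total counts, with no call at any day. Its day 3 libraries lay below those of DMSO (log2 −0.49, SE 0.21, adjusted p = 0.17). Fads2 overlapped DMSO at every day, at 17.1, 6.98 and 23.3, then 22.8, 12.7 and 3.66, then 76.3, 61.8 and 47.8 normalized total counts at days 1, 3 and 7. Fads3 was lower than in DMSO after induction, at 419, 461 and 375 at day 1, 199, 227 and 173 at day 3, and 1012, 1065 and 1239 at day 7. The log2 differences of Fads3 were −0.87 (SE 0.19, adjusted p = 0.0051), −0.60 (SE 0.19, adjusted p = 0.052) and −1.02 (SE 0.19, adjusted p = 0.00081), and no library of either treatment overlapped at those days. Without replicate A the day 1 call was lost (adjusted p = 0.16), and the day 3 call was lost without A (0.4) or C (0.2). At day −2 Fads3 overlapped between treatments. In both arms Fads3 ran from lowest at day 3 through day 1, and its highest mean was that of day 7 in DMSO, clear of all other conditions.

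Elovl6 extends palmitate to stearate and so makes the substrate of the stearoyl-CoA desaturases. In DMSO it fell and stayed low. Normalized total counts of Elovl6 were 1078, 1778 and 821 at day −2 and 293, 397 and 252 at day 1. They were 196, 264 and 137 at day 3 and 137, 136 and 124 at day 7. Every later library lay below every day −2 library. Elovl6 fell 3.90-fold by day 1 (log2 −1.96, SE 0.29, adjusted p = 0.00015), 6.16-fold by day 3 and 9.27-fold by day 7 (log2 −3.21, SE 0.31, adjusted p = 5.5e-07), and the day 1 call was lost without replicate A (adjusted p = 0.016).

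With ML-792 Elovl6 stayed higher. Its normalized total counts were 503, 683 and 420 at day 1, 616, 868 and 636 at day 3, and 278, 409 and 324 at day 7, each above every DMSO library of its day. ML-792 cells held 3.55-fold more Elovl6 RNA at day 3 (log2 1.83, SE 0.27, adjusted p = 4e-05) and 2.55-fold more at day 7 (log2 1.35, SE 0.27, adjusted p = 0.0023). At day 1 the log2 difference was 0.77 (SE 0.26, adjusted p = 0.11), and at day −2 the groups overlapped (1049, 1206 and 1032 with ML-792). The effect differed between days (interaction, adjusted p = 0.0044), but not without replicate A (0.26). Elovl6 was the 1 gene of the 8 that was called higher with ML-792 at days 3 and 7.

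Elovl1 lengthens saturated and monounsaturated acids to very long chains. In DMSO it showed a transient peak, with normalized total counts of 1452, 1144 and 1270 at day −2, 1014, 1211 and 1018 at day 1, 4779, 5272 and 4678 at day 3, and 1608, 2514 and 1644 at day 7. Elovl1 was 3.81-fold higher at day 3 than at day −2 (log2 1.93, SE 0.19, adjusted p = 1e-06) and fell 2.56-fold from day 3 to day 7 (adjusted p = 0.00017). That decrease did not pass without replicate A (adjusted p = 0.028) or C (0.015).

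This day 3 peak of Elovl1 was missing with ML-792. The ML-792 libraries held 1319, 1362 and 1205 normalized total counts at day −2, 919, 906 and 841 at day 1, 1216, 1088 and 1019 at day 3, and 1458, 1292 and 1282 at day 7. Day 3 against day −2 gave a log2 difference of −0.23 (SE 0.16, adjusted p = 0.25) within the ML-792 arm. Against DMSO, Elovl1 was 4.43-fold lower at day 3 (log2 −2.15, SE 0.16, adjusted p = 2.4e-09), and the effect at day 3 differed from that at day −2 by −2.16 log2 units (adjusted p = 1.1e-06, 6.03% of all genes called for this term). At day 7 it was 1.43-fold lower (log2 −0.52, adjusted p = 0.047), a call that was lost when any 1 replicate was left out (adjusted p = 0.16, 0.28 and 0.27 without A, B and C). Of the 8 conditions, day 3 in DMSO stood apart at the top and day 7 in DMSO came next, while the 5 conditions from day 1 in DMSO up to day 7 in ML-792 each overlapped their neighbour.

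Elovl5 lengthens the polyunsaturated acids made by Fads1 and Fads2. It had the narrowest range of the 8, with a ratio of 2.09 between its highest and its lowest condition mean. In DMSO the normalized total counts of Elovl5 were 2336, 1751 and 2077 at day −2, 1979, 2045 and 1931 at day 1, 1452, 1544 and 1518 at day 3, and 2738, 2675 and 2469 at day 7. No later day was called against day −2 (log2 −0.05, −0.45 and 0.35), and the rise from day 3 to day 7 was 1.75-fold (adjusted p = 0.0018, or 0.13 without replicate A and 0.045 without C). With ML-792 the normalized total counts at day 7 were 1637, 1468 and 1523, or 1.70-fold below DMSO with no overlap (log2 −0.77, SE 0.14, adjusted p = 0.00085). At days −2 and 1 the treatments overlapped, and at day 3 the difference was −0.26 (adjusted p = 0.32).

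Across the 8 genes, ML-792 gave no call at day −2, where 0% of all genes were called. At day 1, 1 gene was higher and 1 lower (8.03% of all genes called), at day 3, 1 was higher and 2 were lower (15.4%), and at day 7, 1 was higher and 4 were lower (11.6%). The median log2 difference of the 8 genes at day 7 was −0.43, beside −0.0015 over all genes tested. The interaction of day and treatment was called for 4 of the 8 (Scd1, Elovl1, Elovl5 and Elovl6), against 11.9% of all genes, and for 2 without replicate A. For ML-792 against DMSO, the numbers of genes called at days 1, 3 and 7 were 1, 2 and 4 without A. They were 3, 5 and 5 without B, and 2, 2 and 4 without C. The Elovl5 interaction (adjusted p = 0.023) was lost without replicate A (0.5) or C (0.47). Marker lists moved with ML-792 too. At day 1, where Scd1 was higher, 3 of the 8 adipocyte markers were called higher and 0 lower, with summed levels of 32219 to 39163 against 38419 to 41674 in DMSO. Of the 8 pre-adipocyte or fibroblast markers 2 were higher and 2 lower at day 1 (119265 to 179419 against 177345 to 199767). At day 3, where Elovl1 and Elovl6 differed most, 2 adipocyte markers were higher and 3 lower (405267 to 472974 against 346634 to 502377), and 4 pre-adipocyte or fibroblast markers were higher and 0 lower (36161 to 45093 against 27570 to 34877). At day 7, 4 adipocyte markers were called higher and 0 lower, and their summed level ran from 843392 to 918205 against 640125 to 727991 in DMSO. Pre-adipocyte or fibroblast markers summed to 45121 to 64175 against 25595 to 38114, with 4 of 8 higher and 1 lower. The part of these markers in the results was not tested.

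**Figure D2:**
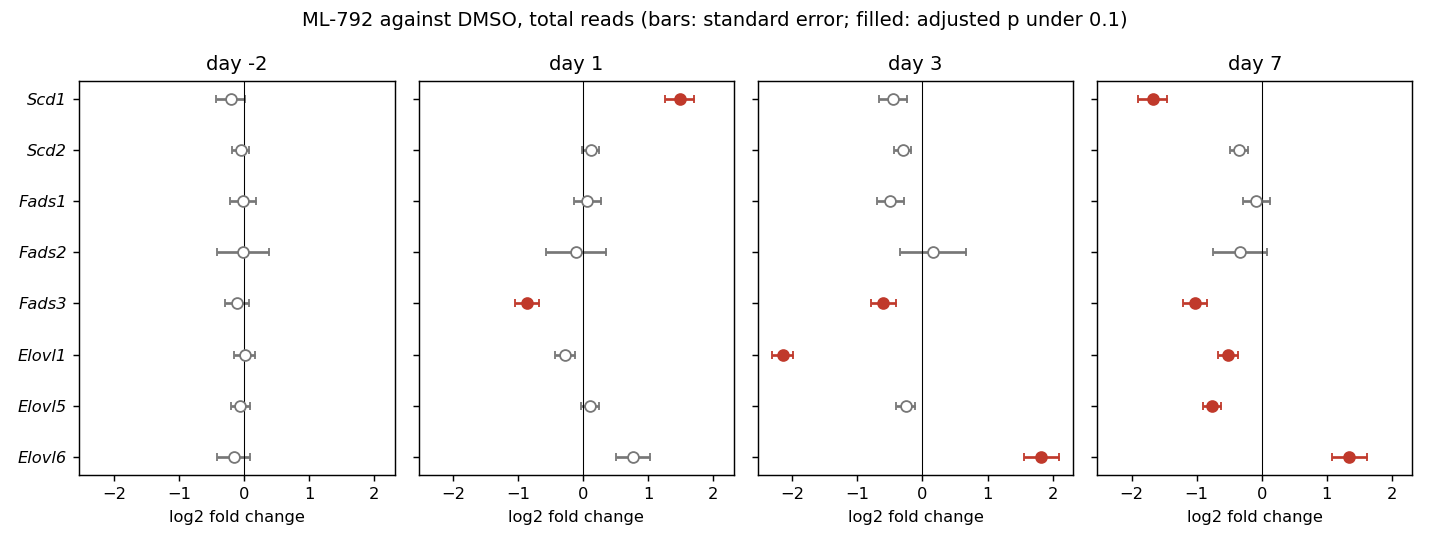
Log2 fold change of total reads, ML-792 over DMSO, for the 8 genes at days −2, 1, 3 and 7. Points are estimates with standard errors from the edgeR fit of all 24 libraries (3 a group), and filled points passed at an adjusted p under 0.1. Scd1 changes side between day 1 (1.48) and day 7 (−1.67), Elovl1 is lowest at day 3 (−2.15) and Elovl6 is higher at day 3 (1.83) and day 7 (1.35).

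Elovl1 and Elovl6 moved most, and in opposite directions, at day 3 with ML-792, and letters of known regulatory motifs in their promoters are given beside that result. RefSeq promoters on GRCm38.p6, from 250 bases before to 50 bases after the start of transcription, held 6 entries for 5 of the genes (Fads2, Fads3, Elovl1, Elovl5 and Elovl6). AGGTCA, the core recognition site of nuclear receptors, was searched on both strands and found in 1 of the 2 entries of Elovl1, in the entry of Elovl6 and in 16.3% of all 32851 promoters. In both it lies on the strand opposite to the gene, 95 bases before the start of that entry in Elovl1 (chr4:118429594-118429623) and 193 bases before the start in Elovl6 (chr3:129532181-129532210). Elovl5 holds the E-box CACGTG 161 bases before its start (chr9:77917192-77917221), as do 7.15% of all promoters. The windows of 30 bases below are on the plus strand, which is that of all 3 genes, with the motif in capitals.
Elovl1: tcctctaggcatTGACCTgtggcctggacc
Elovl6: tgggcttgagtaTGACCTcaaggccacttc
Elovl5: actgccccgagaCACGTGaaccacaggaga
The sterol regulatory element TCACNCCAC (1.24% of all promoters) and the direct repeat of AGGTCA with a spacer of 1 base (0.0396%) were in none of the 6 entries, which says only that these letters are not in this window. CCAAT was in the other entry of Elovl1, in promoters of Elovl5 and Fads3 and in 37.4% of all promoters.

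Labelled reads are enriched for RNA made within the 45 min pulse, and since 1 conversion is enough they also hold reads with a sequencing error. Of the 8 genes, 7 passed the filter on low labelled counts. Fads2 had 0 to 3 labelled reads per library and was not tested. The share of labelled reads over all entries was 3.17% ± 0.485 (SD, n = 3) at day −2 in DMSO and 1.27%, 1.03% and 1.03% at days 1, 3 and 7, so that the median log2 change over all labelled genes against day −2 was −1.20, −1.64 and −1.47. Labelled values below are scaled by total reads and hold this shift. In DMSO 0 genes rose and 3 fell at day 1 (19.5% of all 6434 genes called), 1 rose and 4 fell at day 3 (34.3%), and 1 rose and 2 fell at day 7 (30%). Without replicate A the numbers called were 1, 3 and 2, and without C they were 2, 3 and 2.

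Scd1 was the gene whose labelled reads rose. Its normalized labelled counts in DMSO were 19.6, 10.7 and 13.3 at day −2, 27.6, 23.7 and 12.4 at day 1, 207.9, 211.0 and 194.4 at day 3, and 574.4, 692.5 and 526.5 at day 7. Labelled Scd1 was thus 14.0-fold higher at day 3 (log2 3.80, SE 0.39, adjusted p = 2e-11) and 41.1-fold higher at day 7 (log2 5.34, SE 0.41, adjusted p = 1.5e-15) than at day −2, while day 1 overlapped day −2 (log2 0.53, adjusted p = 0.28). Scaled by labelled reads instead, the day 1 difference was 1.73 and passed (adjusted p = 0.00055). Total reads of Scd1 rose more than its labelled reads. In DMSO labelled reads made up 1.27% ± 0.511 of all Scd1 reads at day −2 and 0.562% ± 0.0441 at day 7 (SD, n = 3). The share of all entries was 1.03% at day 7. With ML-792 the Scd1 share at day 7 was 0.506% ± 0.080.

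With ML-792 the normalized labelled counts of Scd1 were 34.2, 41.9 and 42.0 at day 1, 96.7, 107.6 and 104.8 at day 3, and 177.5, 173.7 and 147.5 at day 7. These lay above all DMSO libraries at day 1 and below them at days 3 and 7. At day 7 labelled Scd1 was 3.60-fold lower (log2 −1.85, SE 0.33, adjusted p = 0.0007), the 1 call among the 7 genes (0.964% of all genes). At day 1 (log2 0.89, SE 0.36, adjusted p = 0.29) and day 3 (log2 −0.99, SE 0.33, adjusted p = 0.2) the differences did not pass. No gene of the 7 was called at days −2, 1 and 3, where 0%, 1.06% and 1.12% of all genes were. Scaled by labelled reads, the day 1 difference of Scd1 was 1.18 and passed (adjusted p = 0.079). The interaction was called for labelled Scd1 alone among the 7 (adjusted p = 0.003, 0.28% of all genes), and it was lost without replicate A (0.14) or C (0.4).

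Whether labelled Scd2 was called depended on the scaling, which moves all genes of a library together. Its normalized labelled counts in DMSO were 171.8, 123.4 and 139.4 at day −2 and 256.1, 200.3 and 250.1 at day 7, with no call by total-read scaling (log2 0.70, SE 0.33, adjusted p = 0.077). At day 1 the difference was −0.55 scaled by total reads and 0.63 scaled by labelled reads, neither called. Scaled by labelled reads, Scd2 was called higher at day 3 (log2 1.74, adjusted p = 1.7e-05) and at day 7 (log2 2.03, adjusted p = 1.1e-06).

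Elovl5 was labelled above its library at day −2, and its labelled reads fell after induction. At day −2 in DMSO its normalized labelled counts were 231.5, 131.5 and 167.0. At days 1, 3 and 7 they were 30.3, 21.0 and 19.0, then 18.6, 10.4 and 17.4, then 19.2, 17.7 and 26.3. Labelled Elovl5 fell 7.54-fold, 11.4-fold and 8.39-fold (log2 −2.91, −3.50 and −3.06, adjusted p = 7.1e-07, 1.6e-08 and 1.8e-07), and its total counts were not called at any of these days. Scaled by labelled reads, the decreases of 1.71, 2.05 and 1.72 log2 units were still called. Labelled reads made up 8.49% ± 1.26 of all Elovl5 reads at day −2 and 1.18% ± 0.307, 1.03% ± 0.317 and 0.809% ± 0.222 at days 1, 3 and 7 (SD, n = 3). With ML-792 the share was 5.62% ± 0.673 at day −2 and 0.751% to 0.914% in the means of the later days. Divided by the share of the whole library, the Elovl5 share of the later DMSO days was 0.337-fold that of day −2 (9 libraries against 3 with no overlap). By exact permutation, two-sided, this gave a raw p of 0.0045, the smallest of the 220 arrangements, in a family of 8 tests. With 1 replicate left out the groups were still separate, at the smallest p that 6 libraries against 2 allow by exact permutation (0.036).

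The same exact permutation test gave p = 0.032 for Scd1, with a relative share 1.71-fold higher at the later days, but undivided its share was lower (log2 −0.74) and the test did not pass without replicate A (0.11) or B (0.25). For Fads2 the exact permutation p of 0.023 rests on the pseudocount, since no later DMSO library had a labelled Fads2 read. The other 5 genes had an exact permutation p between 0.13 and 0.77. ML-792 against DMSO, by exact permutation of treatment within days, gave p between 0.14 and 0.96 for the 8 genes.

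**Figure D3:**
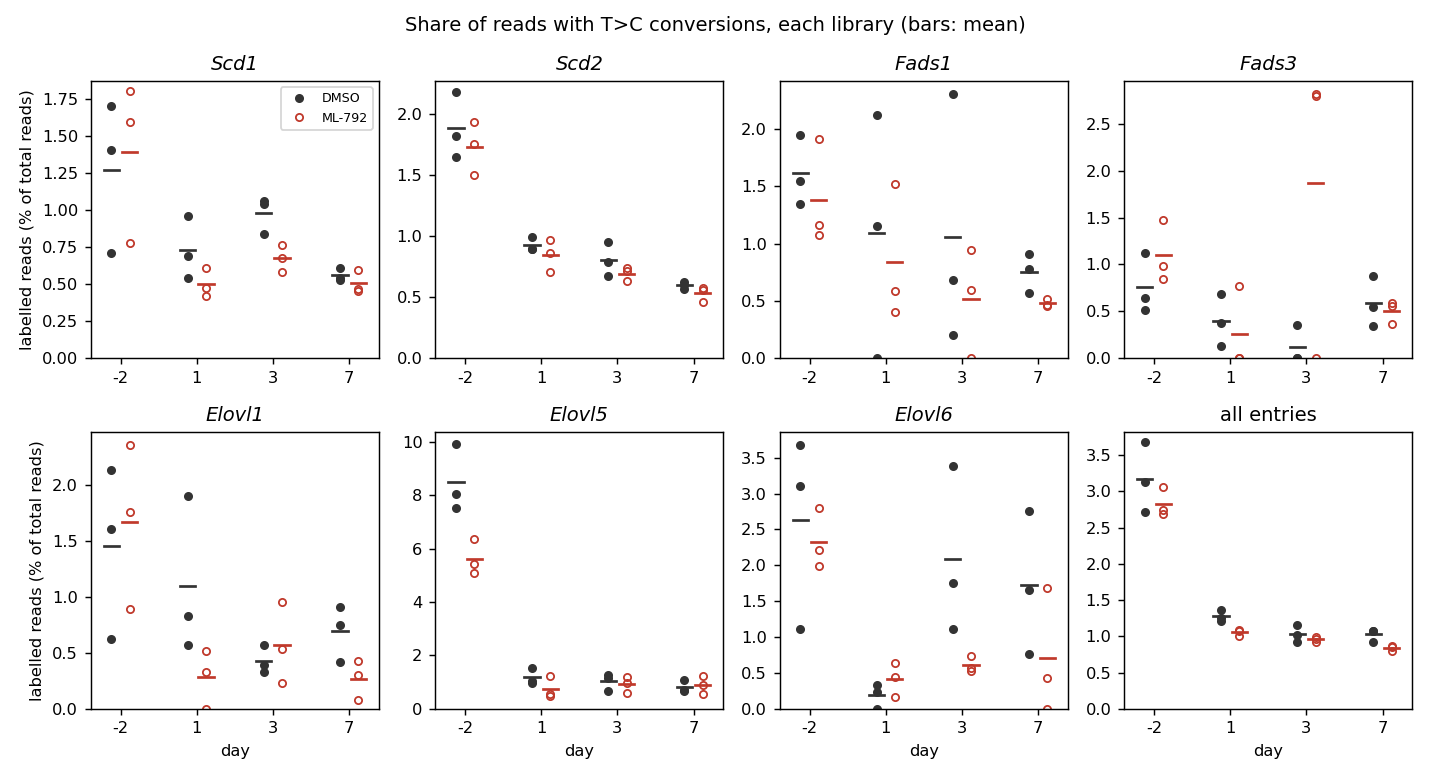
Labelled reads as a percentage of total reads in every library, for 7 genes and for all entries together, by day. Filled points are DMSO, open points ML-792 and short bars the means of 3 libraries; Elovl5 is at 8.49% at day −2 in DMSO and near 1% at later days, beside 3.17% and near 1% for all entries.

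Labelled reads of Elovl6, Fads1 and Fads3 were few. Scaled by labelled reads, Elovl6 and Fads3 were not tested, so their decreases below hold the fall of library labelling. Elovl6 had normalized labelled counts of 33.5, 19.7 and 30.2 at day −2 in DMSO and at most 1 labelled read per library at day 1, a decrease of at least 10.5-fold (adjusted p = 6.6e-05). At day 7 the decrease of labelled Elovl6 was at least 8.39-fold (adjusted p = 0.001). These calls did not hold without replicate A (adjusted p = 0.016 and 0.036), and that of day 7 not without C (0.012). At day 3 labelled Elovl6 was called lower too (log2 −2.83, adjusted p = 0.0045). That call was lost without replicate A (0.1), without C (0.039) or without the filter on low counts (0.013). Labelled Fads1 fell from 76.1, 36.7 and 65.7 at day −2 to 0, 18.2 and 14.0 at day 1 (adjusted p = 0.003) and 4.38, 1.16 and 13.9 at day 3 (adjusted p = 0.00027), and neither passed when scaled by labelled reads (0.2 and 0.063). The day 1 call was also lost without replicate A, the library at 0 (log2 −1.66 in place of −2.45, adjusted p = 0.12), or C (0.022). Labelled Fads3 was at least 3.06-fold lower at day 3 than at day −2 (adjusted p = 0.0036), a call lost when any 1 replicate was left out (0.015, 0.017 and 0.058 without A, B and C) or when a background of labelled reads was taken off (0.021). Labelled Elovl1 was not called at any day in DMSO, with 17.4 to 26.6 normalized labelled counts at day 3 and 7.15 to 31.1 at day −2.

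Other genes of the pathway were read from lists chosen by name. Of 9 other desaturases and elongases 5 had enough total reads to be tested. From day −2 to day 7 in DMSO 2 of them rose and 1 fell (38.3% of all genes called), and at day 7 with ML-792 3 were higher and 0 lower than in DMSO (11.6% of all genes called). Elovl3, which makes very long saturated and monounsaturated acids and is known from brown fat, had 570.5 to 673.9 normalized counts at day 7 in DMSO and 2105 to 3464 with ML-792 (log2 2.19, SE 0.33, adjusted p = 0.00013). Elovl4, an elongase of very long polyunsaturated acids, had 126.2 to 221.6 and 364.1 to 573.1 (log2 1.46, SE 0.25, adjusted p = 0.00044). Both lay opposite to Scd1, Fads3, Elovl1 and Elovl5 and on the side of Elovl6. Fads6, the last of the 3, was called higher too (adjusted p = 0.09), from at most 1 read in DMSO to at most 15 reads per library. With so few reads in DMSO it could not have been called lower. Scd3, a paralog of Scd1, went from a mean of 2.00 to 1189 normalized counts between day −2 and day 7 in DMSO, and Elovl3 from 6.05 to 610.4. The median log2 fold change of the 5, Fads6 included, was 0.30 for day 7 against day −2, beside −0.015 over all genes. It was 1.46 for ML-792 at day 7, beside −0.0015.

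The partner list holds the other enzymes of the elongation cycle and the cytochrome b5 system, and 11 of 11 genes were tested. Between day −2 and day 7 in DMSO 5 rose and 1 fell, where 38.3% of all genes were called, with a median log2 fold change of 0.72 beside −0.015 over all genes. Among them Hacd2, a dehydratase of the cycle, rose by 3.28 log2 units with a wide spread at day 7 (6516 to 34914 normalized counts). Cyb5a, the cytochrome b5 that feeds electrons to the desaturases, rose by 1.91, its mitochondrial outer membrane form Cyb5b rose by 1.51, and Hacd4 fell by 4.21. At day 7 with ML-792 1 partner was higher (Cyb5b, log2 0.36, adjusted p = 0.096) and 1 lower (median 0.14 over the 11), or 2 of 11 where 11.6% of all genes were called. The lower one was Cyb5r1, a cytochrome b5 reductase, with 2712 to 5403 normalized counts in DMSO and 856.4 to 1278 with ML-792 (log2 −1.73, SE 0.23, adjusted p = 1.7e-05).

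Regulators of the pathway mostly rose with differentiation. Of 11 tested, 9 were higher and 1 lower at day 7 than at day −2 in DMSO (median log2 1.73), where 18.9% of all genes were higher and 19.4% lower. Mlxipl, which encodes ChREBP, had 0 reads at day −2 and 39.5 to 90.7 normalized counts at day 7. Nr1h3, which encodes LXRα, rose by 5.15, Pparg by 3.73, Srebf1 by 1.73 and Insig1 by 0.84 log2 units, whereas Srebf2 fell by 1.26. With ML-792 at day 7, 1 regulator was higher and 1 lower (11.6% of all genes called), with a median log2 difference of −0.30. Srebf1, known to drive Scd1 and Elovl6, was higher (619.5 to 977.2 normalized counts in DMSO, 1211 to 1838 with ML-792, log2 0.83, SE 0.18, adjusted p = 0.0054), and Insig2, which retains SREBP at the endoplasmic reticulum, was lower (log2 −1.23, SE 0.19, adjusted p = 0.00011). Nr1h3 (log2 −0.30, adjusted p = 0.39), Pparg (0.51, 0.64) and Insig1 (−0.55, 0.12) did not pass. Of the acyl-CoA synthetases, which activate fatty acids for these enzymes, 4 of 5 were tested. Acsl1 rose by 6.87 and Acsl5 fell by 0.81 log2 units by day 7 in DMSO (median 0.074), and with ML-792 at day 7 Acsl5 was higher (log2 1.03, adjusted p = 0.00043) and Acsl4 lower (log2 −0.68, adjusted p = 0.058), with a median of 0.29.

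**Figure D4:**
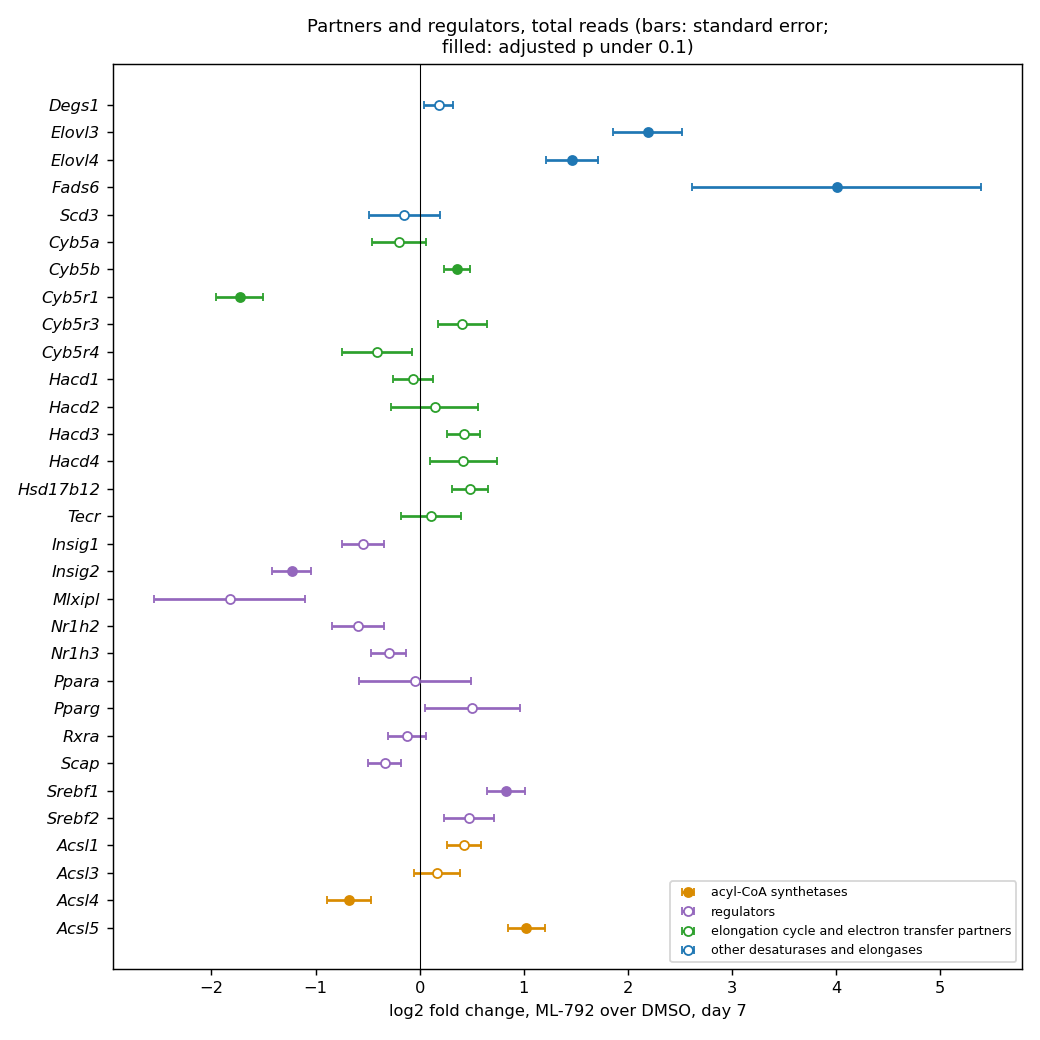
Log2 fold change of total reads at day 7, ML-792 over DMSO, for the tested genes of the 4 pathway lists. Standard errors are from the edgeR fit of all 24 libraries (3 a group). Filled points passed at an adjusted p under 0.1. Elovl3, Elovl4 and Fads6 lie to the right, Fads6 with almost no reads in DMSO. Cyb5r1 and Insig2 lie to the left, and most partners and regulators are open.

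The genes whose courses over the 8 condition means were most like those of each gene other than Fads2 were named from 9250 genes. Scd1 was followed most closely by Cyb5a (r = 0.994), which stands in the partner list above, then by Gfer and Sec63. Nearest to Scd2 was Sod1 (r = 0.995), to Fads1 Angptl2 (0.988) and to Fads3 Tk2 (0.974). Nearest to Elovl1 was Ibtk (0.951), to Elovl5 Lemd2 (0.945) and to Elovl6 Kctd1 (0.978). These are Pearson correlations of 8 means on the log2 scale that share the same libraries and are given as a description. They do not reflect the size of a change, and Cyb5a was not called with ML-792 at day 7.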

How the data were processed

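QuantSeq FWD libraries of SLAMseq-treated RNA were sequenced single-end on an Illumina HiSeq, with base calling by bcl2fastq 2.17.1.14 per the submitters' processing notes. The authors mapped and filtered reads with SlamDunk v0.4.3 on mm10, counted them on RefSeq 3′UTR entries, and deposited raw counts of total and labelled reads per entry and library, not normalized. Libraries were assigned by sample title, and the replicates are 3 separate cultures of 1 cell line per condition. In the deposited tables, 6 library columns matched no sample and were not used.

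Counts were tested with edgeR 4.0.16 (R 4.3.3, limma 3.58.1, robust quasi-likelihood fit, tested on simulated data) after filterByExpr (minimum count 10, minimum total 15), with TMM over 24 libraries. For labelled counts, library sizes and TMM factors were those of total reads. p-values were Benjamini-Hochberg adjusted over 26563 total or 10589 labelled entries, and the threshold was 0.01 for days and 0.1 for ML-792 and the interaction. Day comparisons in DMSO used the 12 DMSO libraries, all others the 24. Standard errors (SE) of log2 fold changes are the absolute log2 fold change divided by the square root of the test's F statistic. Each gene is its best-covered entry, and percentages of all genes use the same choice. A fold against a group at 3 reads or fewer per library was set against 3 reads per library. Labelled shares used pseudocounts of 0.5 and 1. DESeq2 1.42.0 was an alternative. Figures used Python 3.11.15 with matplotlib 3.10.9. Depth of 13554718 to 27013352 total reads limits only Fads2, and 115709 to 820046 labelled reads limit most labelled values.

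The 8 genes and all lists were chosen with earlier results of these data known. Named were the 8 genes, at most the 3 most changed called genes per list and direction at day 7 (ML-792 against DMSO, and against day −2 in DMSO), Srebf1, Nr1h3, Pparg and Insig1, and 3 similar genes per gene, of which the text gives all for Scd1 and the nearest for the others, except that the genes similar to Fads2 are not reported here. Marker lists (adipocyte, pre-adipocyte or fibroblast, macrophage, endothelial, muscle) are given by counts and sums. Of 5 macrophage markers 3 were tested, with 0 higher and 1 lower at day 7 than at day −2 (38.3% of all genes called). With ML-792 at day 7 1 was higher (11.6% of all genes called). Of 4 endothelial and 4 muscle markers 1 each was tested, and none was called in these comparisons.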

Additional observations from a re-analysis of the deposited data

Results flagged for a closer look

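The effect of ML-792 differed between the days for 4 of the 8 genes in total reads by edgeR's interaction test. Adjusted p was 3.8e-06 for Scd1, 1.8e-06 for Elovl1, 0.0044 for Elovl6 and 0.023 for Elovl5. Scd1 moved from 1.48 log2 units above DMSO at day 1 to 1.67 below it at day 7 (log2 −1.67). Elovl1 differed most at day 3 (log2 −2.15) and Elovl6 at day 3 in the other direction (log2 1.83). In labelled reads the interaction was called for Scd1 (adjusted p = 0.003), with log2 differences of 0.89 at day 1 and −1.85 at day 7. Without replicate A the total-read interaction was not called for Elovl6 (0.26) and Elovl5 (0.5), and labelled Scd1 was not called without A (0.14) or C (0.4).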

How the results depend on the processing

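Of 29 calls in total reads (days against day −2 in DMSO, ML-792 against DMSO, and the interaction), 19 held in every fit that left out 1 replicate and 26 in every other alternative. Of 13 labelled calls these numbers were 7 and 9, where a call counted as held if an alternative did not test the gene. Scaled by labelled reads, Elovl6 and Fads3 were not tested. In that setting 15 of the 21 labelled tests for days in DMSO were made, and 5 of the 11 calls were kept. Leaving out 1 replicate gave 10 to 18 calls for days in DMSO in total reads (main 15 of 24), 7 to 13 for ML-792 (main 10 of 32) and 2 to 6 for the interaction (main 4). In labelled reads it gave 6 to 10 (main 11 of 21), 1 to 1 (main 1 of 28) and 0 to 1 (main 1). For the labelled share it gave 1 to 2 genes with an exact permutation p under 0.05 for days (main 3 of 8) and 0 to 0 for ML-792 (main 0). Labelled ML-792 calls were 2 with DESeq2 and 2 with the replicate block (Scd1 at day 3 was added in both) and 2 scaled by labelled reads (Scd1 at day 1 was added). The ML-792 share test had 1 gene under 0.05 when the share was not divided by that of the library and 1 with a pseudocount of 1. Directions turned for Scd2 at day 3 against day −2 in ML-792 when scaled by labelled reads (log2 1.30), and, with the share not divided by that of the library, for Scd1 (−0.74) and Scd2 (−1.30) at later days and Scd2 with ML-792 (−0.16), where library labelling fell after day −2 and was on average lower with ML-792 than with DMSO at each day (0.837% against 1.03% at day 7). With the replicate block the numbers of calls in total reads were 19, 15 and 6. The added calls were Scd2 at day 1, Elovl5 at day 3 and Elovl1 and Fads3 at day 7 for days in DMSO, and Elovl6 at day 1, Scd1, Scd2 and Fads1 at day 3 and Scd2 at day 7 for ML-792. Letters did not pass the check for pairing used here, since not every same-letter correlation was over 0.1 (lowest −0.158). Same-letter means were 0.0741, 0.215 and 0.13 for A, B and C, each above the −0.069 between letters. Failing this check does not show that libraries of the same letter share nothing. The main fit had no replicate block. Low labelled counts limit Fads1, Fads2, Fads3, Elovl1 and Elovl6, and counting of reads shared between Scd paralogs was not tested.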
